A study of Oryza sativa with 6 samples.

Results

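The genes described here are the listed rice genes whose best match in Swiss-Prot, the curated protein database, is an enzyme of phenylpropanoid, flavonoid or terpenoid metabolism or a UDP-dependent glycosyltransferase. They were chosen by words in that annotation alone, and 71 of the 2995 genes in the deposited table qualified. Leaf RNA was sequenced from 3 libraries of WYG7, the background rice line, and 3 libraries of PIF4v3m, and all plants of both lines grew in pots under fluctuating light combined with drought stress (FL-DS). The labels give leaves of 3-week-old plants, and the comparison asks which genes differ between an edited line and its background under FL-DS. PIF4v3m was taken to be the line in which CRISPR/Cas9 deleted the v3 SNP in the promoter of OsPIL13, a phytochrome-interacting transcription factor, in WYG7. The labels do not state that match, the edit is represented by a single line, and no library of unstressed plants was analysed here. The study's text and the labels differ on the timing of FL-DS, so its length is not given here, and the labels do not say whether the libraries of a line came from separate plants, so that p-values measure only the spread between these libraries.

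Phenylpropanoid metabolism turns the amino acid phenylalanine into cinnamate and p-coumaroyl-CoA, from which branches lead to the monolignol units of lignin and, through chalcone, to flavonoids. Diterpenes are built in the plastid from geranylgeranyl diphosphate, and in rice a copalyl diphosphate synthase directs this precursor either to gibberellins or to the antimicrobial phytoalexins. UDP-dependent glycosyltransferases (UGTs) attach sugars to such products and to hormones, which alters their solubility, storage and activity.

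Values were deposited as FPKM, a read level scaled to the length of the transcript and to the mapped reads of the library, so that genes can be compared by level. Every row of the table had been called by the authors, and the number of genes of these pathways that did not differ is unknown. For this reason almost every row passed again, and only the direction and the size of a difference can be read against the table. By limma on log2(FPKM + 1), 99.9% of all rows were called at an adjusted p under 0.05, and in 99.4% the values of the 2 lines did not overlap. Sums of FPKM over all rows ranged from 73597 to 83228 in WYG7 and from 67146 to 72353 in PIF4v3m, and since FPKM carry no counts, the number of reads behind a value is not given. Markers of leaf photosynthesis were present in every library but went in both directions, with 4 of 9 listed genes higher and 5 lower in PIF4v3m, and their summed level was 13798 to 14587 FPKM in WYG7 and 6756 to 9034 FPKM in PIF4v3m. Of 10 rows matched as meristem markers 6 were higher and 4 lower, 1 of the lower ones being a chloroplast ribosome-recycling factor that only shares letters with cyclin, and their summed level was 81.3 to 96.8 FPKM in WYG7 and 66.2 to 67.8 FPKM in PIF4v3m. No seed storage gene was listed. The 2 rows whose best Swiss-Prot match is PIL13 (LOC4342383 on chromosome 7 and LOC4352761 on chromosome 12) were both higher in PIF4v3m. The study places OsPIL13 on chromosome 3, so by position neither row is OsPIL13, the gene whose promoter was edited. No row with that match lay on chromosome 3. The lower OsPIL13 expression that the study reports for its edited line therefore cannot be checked here. The first was at 6.07, 6.17 and 5.78 FPKM in WYG7 and at 12.8, 11.6 and 11.4 FPKM in PIF4v3m, and the second at 2.44 ± 0.200 and 6.95 ± 0.531 FPKM (SD, n = 3). No collection time is recorded, and all 5 listed REVEILLE and LHY clock genes were higher in PIF4v3m (summed level 60.9 to 68.3 FPKM in WYG7 and 414 to 425 FPKM in PIF4v3m), so time of day and the line cannot be told apart.

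Most of the 71 genes were lower in PIF4v3m. At an adjusted p under 0.05, 48 were lower (67.6%, against 54.1% of all rows) and 23 were higher (32.4%, against 45.8% of all rows), and in none did the lines overlap. On the log2(FPKM + 1) scale, 34 were more than 2-fold lower (47.9%, against 33.9% of all rows) and 13 more than 2-fold higher (18.3%, against 26.6% of all rows). These counts rest on the added 1 FPKM, since with 0.1 FPKM added 47 were lower and 23 higher (all rows 1594 and 1266), and by the ratio of means all 71 were over 2-fold apart. The median log2 fold change was -0.95, with a range of -4.17 to 2.07, and that of all rows was -0.56. By the ratio of mean FPKM, 19 of the 71 (26.8%) were over 10-fold lower in PIF4v3m, against 201 of all rows (6.71%), while 1 (1.41%) was over 10-fold higher, against 84 of all rows (2.80%). In this bulk leaf RNA, fewer cells of a type and less RNA per cell cannot be told apart. Of the 71 genes, 63 reached a mean of 1 FPKM in at least 1 line, and the other 8 stayed below it in both.

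**Figure D1:**
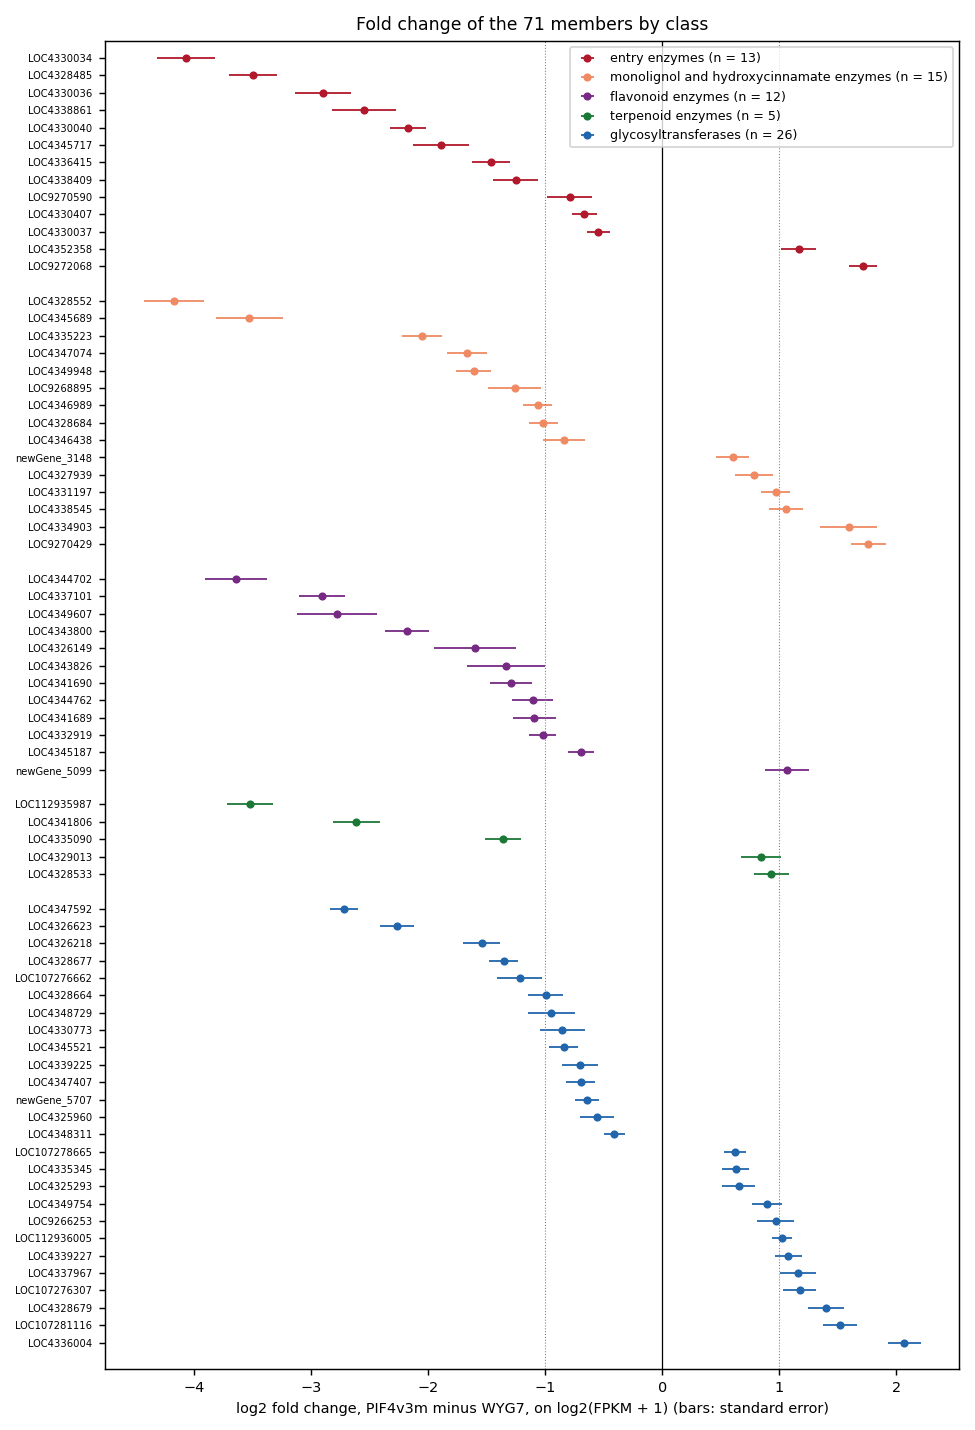
The log2 fold change of each of the 71 genes (PIF4v3m minus WYG7, on log2(FPKM + 1); x axis) is plotted by gene and class, with bars for the standard error of the limma fit and dotted lines at 2-fold. Of the entry enzymes 11 of 13 lie left of 0 and of the flavonoid enzymes 11 of 12, while the glycosyltransferases are split into 14 lower and 12 higher genes.

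The classes differed in their balance. The enzymes at the entry to the pathway had 11 of 13 genes lower (84.6%) and a median log2 fold change of -1.46. The flavonoid enzymes had 11 of 12 lower (91.7%) and a median of -1.31. Over all rows 54.1% were lower, with a median of -0.56. The enzymes of the monolignol and hydroxycinnamate branches had 9 of 15 lower (60%, median -1.02) and the terpenoid enzymes 3 of 5 (60%, median -1.36). By count both classes were near the share of all rows, while their medians were lower. The glycosyltransferases, with 14 of 26 lower (53.8%) and a median of -0.48, lay near the table as a whole.

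Phenylalanine ammonia-lyase (PAL), the enzyme that removes ammonia from phenylalanine to give cinnamate, was represented by 7 genes, of which 6 were lower and 1 was higher in PIF4v3m. The most abundant, LOC4330034, was at 55.6, 29.0 and 31.5 FPKM in WYG7 and at 1.09, 1.04 and 1.76 FPKM in PIF4v3m. The lowest WYG7 library thus stayed far above the highest PIF4v3m library, and the log2 fold change was -4.07 (standard error 0.25, limma adjusted p = 2.93e-06). LOC4330036 was at 43.1, 23.2 and 23.1 FPKM in WYG7 and at 2.43, 2.93 and 3.60 FPKM in PIF4v3m (log2 fold change -2.90, standard error 0.24). These 2 genes supplied most of the PAL level of WYG7 leaves, and both fell to a few FPKM. LOC4338861 on chromosome 5 was at 9.37, 5.23 and 3.53 FPKM in WYG7 and at 0.0645, 0.169 and 0.176 FPKM in PIF4v3m. LOC4330040 had 3.88 ± 0.918 FPKM in WYG7 and 0.0715 ± 0.0428 FPKM in PIF4v3m (SD, n = 3). Both were thus close to 0 in the edited line, with log2 fold changes of -2.55 and -2.17.

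The exception was LOC4352358 on chromosome 12, a PAL gene of low level in WYG7 with 2.57, 3.60 and 2.31 FPKM, which was at 7.77, 7.59 and 7.16 FPKM in PIF4v3m (log2 fold change 1.17, standard error 0.15, limma adjusted p = 0.00011). Every PIF4v3m library lay above every WYG7 library, and with a mean of 7.51 FPKM of the summed 13.0 FPKM this gene was the leading PAL gene of PIF4v3m.

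**Figure D2:**
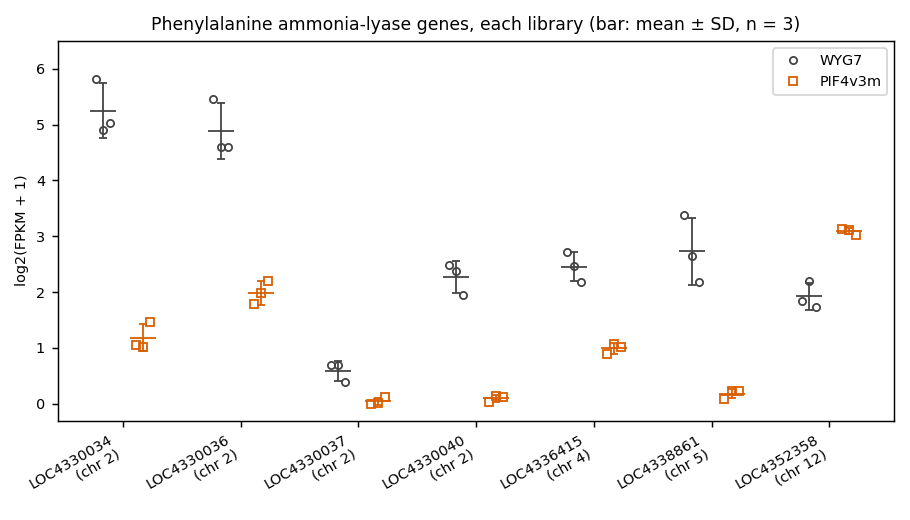
The 7 phenylalanine ammonia-lyase genes are plotted with log2(FPKM + 1) on the y axis, a point for each library, and a bar for the mean ± SD (n = 3). The 4 adjacent genes of chromosome 2 and those of chromosomes 4 and 5 are lower in PIF4v3m (log2 fold changes -4.07 to -0.55), and the gene of chromosome 12 is higher (1.17).

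Of the PAL genes, 4 are direct neighbours on chromosome 2 in the RefSeq gene order (LOC4330034, LOC4330036, LOC4330037 and LOC4330040, with 0 protein-coding genes between them), and all 4 were lower. Tandem PAL genes are similar in sequence, so the split of reads among them is uncertain, and their sum is less exposed to it. Summed over the 7 genes, PAL was at 121, 70.4 and 67.1 FPKM in WYG7 and at 12.2, 12.9 and 13.9 FPKM in PIF4v3m. This is a 6.63-fold difference of the means (86.3 ± 30.5 against 13.0 ± 0.839 FPKM, SD, n = 3), and 5.28-fold without WYG7 replicate 1, the highest library.

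The next steps of the entry route went the same way in part. Cinnamate 4-hydroxylase (annotated trans-cinnamate 4-monooxygenase), the membrane P450 that turns cinnamate into p-coumarate, had 2 listed genes, both lower. The abundant LOC4338409 was at 49.4, 31.3 and 28.2 FPKM in WYG7 and at 13.6, 14.1 and 15.0 FPKM in PIF4v3m (log2 fold change -1.25, standard error 0.19, limma adjusted p = 0.000282), a smaller difference than for the leading PAL genes. LOC9270590 stayed below 3 FPKM in each library.

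4-coumarate-CoA ligase (4CL) activates p-coumarate and related acids with coenzyme A for every later branch. The rice gene 4CL3 (LOC4328485) was at 45.1, 27.2 and 25.7 FPKM in WYG7 and at 1.92, 2.04 and 1.73 FPKM in PIF4v3m. Its log2 fold change was -3.49 (standard error 0.20, limma adjusted p = 2.41e-06), and it ranked 24 among the decreases of the table on that scale. The genes 4CL5 (LOC4345717) and 4CL2 (LOC4330407) were also lower, at 4.96 ± 1.95 against 0.571 ± 0.283 FPKM and at 1.15 ± 0.240 against 0.352 ± 0.0617 FPKM. In contrast, 4CL-like 2 (LOC9272068), a relative whose substrate is not given by its annotation, was at 2.73, 2.35 and 2.73 FPKM in WYG7 and at 11.8, 10.1 and 10.6 FPKM in PIF4v3m (log2 fold change 1.72, standard error 0.12). With this gene included the summed 4CL level was 3.03-fold lower in PIF4v3m.

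In the monolignol branch, cinnamyl alcohol dehydrogenase (CAD), which makes the alcohols that are polymerised into lignin, was lower in all 3 listed genes. CAD2 (LOC4328552), known in rice as a gene of lignin formation, was at 52.6, 27.1 and 25.8 FPKM in WYG7 and at 0.699, 0.995 and 1.05 FPKM in PIF4v3m. On the log2(FPKM + 1) scale this was the steepest decrease of the 71 genes and ranked 10 in the table, whereas by the ratio of means, 38.5-fold, some genes of lower level exceeded it (log2 fold change -4.17, standard error 0.26, limma adjusted p = 3.06e-06). CAD6 (LOC4335223) was at 6.01, 4.58 and 4.36 FPKM in WYG7 and at 0.193, 0.464 and 0.683 FPKM in PIF4v3m. CAD8B (LOC4346989) had 23.0 ± 2.14 FPKM in WYG7 and 10.5 ± 1.49 FPKM in PIF4v3m and so made up most of the CAD signal that remained. The CAD sum was 5.32-fold lower in PIF4v3m, at 11.9 ± 1.81 against 63.2 ± 18.1 FPKM (SD, n = 3).

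Cinnamoyl-CoA reductase (CCR), the step before CAD, was divided among its genes. LOC4345689 was at 21.2, 9.26 and 9.29 FPKM in WYG7 and at 0.102, 0.230 and 0.135 FPKM in PIF4v3m (log2 fold change -3.52, standard error 0.29). LOC4347074, the most abundant in WYG7, had 46.3 ± 8.22 FPKM there and 13.9 ± 2.86 FPKM in PIF4v3m (SD, n = 3). LOC9270429, in turn, was at 15.4, 9.73 and 11.9 FPKM in WYG7 and at 44.4, 41.5 and 44.6 FPKM in PIF4v3m, the largest increase of this class on the log2(FPKM + 1) scale (log2 fold change 1.76, standard error 0.15, limma adjusted p = 1.34e-05). Thus a different CCR gene led in each line. The sums over the 5 CCR genes overlapped between the lines, at 58.9 to 93.3 FPKM in WYG7 and 55.0 to 63.6 FPKM in PIF4v3m. CCR names rest on similarity to enzymes of Arabidopsis thaliana for 3 of these genes, and relatives of CCR can act on other substrates.

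**Figure D3:**
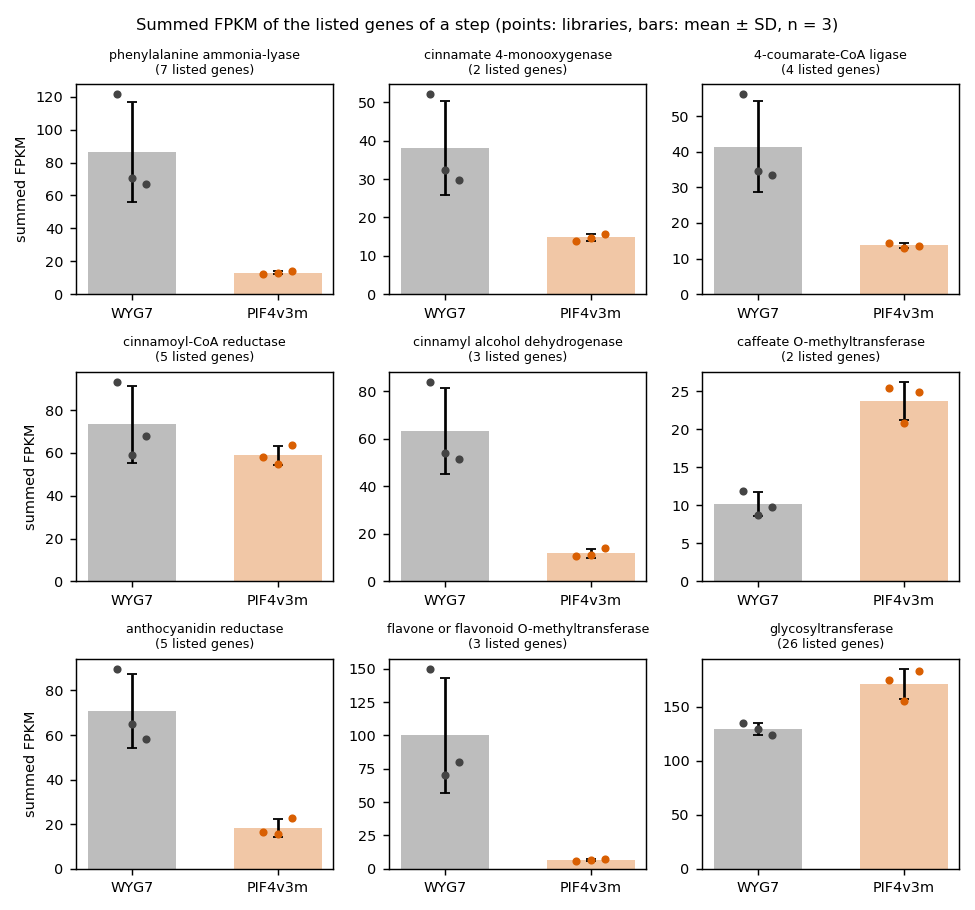
Summed FPKM of the listed genes of 9 enzyme steps is plotted for WYG7 and PIF4v3m, with points for libraries and bars for the mean ± SD (n = 3) starting at 0. Phenylalanine ammonia-lyase (86.3 against 13.0 FPKM) and cinnamyl alcohol dehydrogenase (63.2 against 11.9 FPKM) are lower in every PIF4v3m library, and cinnamoyl-CoA reductase overlaps. The 2 genes annotated as caffeate O-methyltransferase (10.2 against 23.7 FPKM) and the glycosyltransferases (130 against 171 FPKM) are higher. Those annotated as flavone or flavonoid O-methyltransferase (100 against 6.71 FPKM) are lower.

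Enzymes that decorate the ring or shuttle its esters did not share a direction. Both genes annotated as caffeate O-methyltransferases were higher. LOC4331197, closest to the maize caffeic acid enzyme, was at 11.1, 8.19 and 8.91 FPKM in WYG7 and at 19.2, 18.3 and 20.3 FPKM in PIF4v3m (log2 fold change 0.97, standard error 0.12). LOC4334903, caffeate O-methyltransferase-like protein 2, was at 0.766, 0.589 and 0.882 FPKM in WYG7 and at 6.23, 2.58 and 4.63 FPKM in PIF4v3m (log2 fold change 1.59, standard error 0.24). Of 3 genes annotated as caffeoylshikimate esterase, which frees caffeate from its shikimate ester, LOC4338545 was higher (8.04 ± 1.79 against 17.6 ± 0.170 FPKM), LOC4327939 was higher and LOC4328684 was lower (11.3 ± 1.47 against 5.04 ± 0.173 FPKM). Both hydroxycinnamoyltransferases, which join hydroxycinnamoyl groups to acceptors such as polyamines, were lower. LOC4349948 had 13.6 ± 1.39 FPKM in WYG7 and 3.80 ± 0.765 FPKM in PIF4v3m, and the putrescine enzyme LOC9268895 had 1.83 ± 1.07 and 0.130 ± 0.0558 FPKM (SD, n = 3).

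Among the flavonoid enzymes, the gene with the highest level of all 71 in WYG7 was flavone 3'-O-methyltransferase 1 (LOC4344702), a rice enzyme that methylates flavones and belongs to the family of the lignin O-methyltransferases. It was at 148, 68.3 and 76.9 FPKM in WYG7 and at 5.80, 6.40 and 7.31 FPKM in PIF4v3m. The lines were far apart although replicate 1 of WYG7 was about 2 times the others, and the log2 fold change was -3.64 (standard error 0.26, limma adjusted p = 6.41e-06). The related LOC4344762 and LOC4345187 were lower as well but near or below 2 FPKM. Within the O-methyltransferases, the gene named for flavones was thus lower and the 2 genes named for caffeate were higher in every PIF4v3m library. These names do not exclude shared substrates, so the direction of lignin O-methylation as a whole cannot be read from them.

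All 5 genes annotated as anthocyanidin reductase, which in grapevine forms flavan-3-ols, the units of condensed tannins, were lower. LOC4337101 was at 38.8, 26.6 and 23.8 FPKM in WYG7 and at 2.65, 2.65 and 3.86 FPKM in PIF4v3m (log2 fold change -2.91, standard error 0.20, limma adjusted p = 4.95e-06). LOC4343800 was at 5.12, 3.95 and 2.66 FPKM in WYG7 and at 0, 0.0575 and 0.126 FPKM in PIF4v3m. The lines did not overlap in either gene. LOC4341689 and LOC4341690, direct neighbours on chromosome 6, were at 30.2 ± 6.91 against 13.6 ± 2.79 FPKM and at 5.26 ± 0.983 against 1.57 ± 0.457 FPKM, with log2 fold changes of -1.09 and -1.29. LOC4343826 was the most variable in WYG7, at 1.26, 3.69 and 0.609 FPKM, and was listed at 0, 0.0635 and 0 FPKM in PIF4v3m. All these names come from the best match in Vitis vinifera or Ginkgo biloba, and their substrates in rice are not given by the table.

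A chalcone-flavonone isomerase (annotated as the probable isomerase 3 of Arabidopsis thaliana, LOC4349607), of the enzyme family that closes the ring of the flavonoid skeleton, was at 34.2, 16.6 and 23.1 FPKM in WYG7 and at 1.47, 4.76 and 2.27 FPKM in PIF4v3m (log2 fold change -2.77, standard error 0.34). Its standard error was among the larger ones, since both lines were uneven, but the highest PIF4v3m library was below the lowest WYG7 library. The isoflavone reductase homolog IRL (LOC4326149) and flavonoid 3',5'-hydroxylase 1 (LOC4332919), a P450 known from petunia for blue pigments, were also lower, with log2 fold changes of -1.60 and -1.02. Within this class the only higher gene was a new gene of the authors' assembly, Oryza_sativa_newGene_5099, whose best match is isoflavone 2'-hydroxylase of licorice. It was at 34.7, 20.5 and 24.8 FPKM in WYG7 and at 64.9, 52.7 and 50.2 FPKM in PIF4v3m (log2 fold change 1.06, standard error 0.19, limma adjusted p = 0.000617).

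Of the 5 terpenoid genes, the 2 copalyl diphosphate synthases went in opposite directions. Syn-copalyl diphosphate synthase (LOC4335090), the first step towards the momilactone phytoalexins in rice, was at 5.42, 5.03 and 4.98 FPKM in WYG7 and at 1.59, 0.960 and 1.69 FPKM in PIF4v3m (log2 fold change -1.36, standard error 0.15, limma adjusted p = 5.58e-05). Ent-copalyl diphosphate synthase 1 (LOC4329013), the enzyme of gibberellin synthesis, was at 0.314, 0.566 and 0.983 FPKM in WYG7 and at 1.60, 2.24 and 1.80 FPKM in PIF4v3m (log2 fold change 0.84, standard error 0.17, limma adjusted p = 0.00125). Neither pair of groups overlapped, and the ent-form remained at a low level in both lines.

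Ent-isokaurene C2/C3-hydroxylases, P450 enzymes of rice that oxidise diterpenes, had 3 genes. LOC112935987 on chromosome 10 was at 27.1, 18.7 and 17.6 FPKM in WYG7 and at 0.815, 1.32 and 0.627 FPKM in PIF4v3m (log2 fold change -3.52, standard error 0.20, limma adjusted p = 2.16e-06). LOC4341806 on chromosome 6 was at 7.64, 3.91 and 4.95 FPKM in WYG7 and at 0.0281, 0.0170 and 0.0534 FPKM in PIF4v3m. Both had nearly vanished from the PIF4v3m libraries. LOC4328533 on chromosome 2 was higher instead, at 4.39 ± 1.02 against 9.17 ± 0.164 FPKM (log2 fold change 0.93, standard error 0.15).

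In the RefSeq order of chromosome 4, the syn-copalyl diphosphate synthase gene opens a run of 6 protein-coding genes, of which 5 are listed and placed by KEGG in diterpenoid biosynthesis. This stretch is known in rice as a momilactone gene cluster, and it was looked at after the values were seen. All 5 genes were lower in PIF4v3m. The next gene, 9-beta-pimara-7,15-diene oxidase (LOC4335091), had 4.64 ± 0.947 FPKM in WYG7 and 1.33 ± 0.233 FPKM in PIF4v3m (SD, n = 3). A momilactone A synthase (LOC4335093) had 1.61 ± 0.421 FPKM in WYG7, and 2 of the 3 PIF4v3m libraries listed it at 0. The 9-beta-pimara-7,15-diene synthase (LOC4335094), which acts on the product of the syn-enzyme, had 1.09 ± 0.185 FPKM in WYG7, and every PIF4v3m library listed it at 0. The oxidase annotated as cytochrome P450 99A2 (LOC4335096) was at 8.85, 4.42 and 4.74 FPKM in WYG7 and at 0.0404, 0 and 0.0508 FPKM in PIF4v3m.

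The 26 glycosyltransferase genes were the largest class and the most evenly split, with 12 higher and 14 lower genes, of which 7 and 5 were more than 2-fold apart on the log2(FPKM + 1) scale. By the ratio of mean FPKM all 26 were over 2-fold apart. The lowest in PIF4v3m was LOC4347592, whose best match is UGT13248, a barley enzyme known for detoxifying the Fusarium toxin deoxynivalenol. It was at 5.97, 4.96 and 6.01 FPKM in WYG7 and at 0, 0 and 0.0221 FPKM in PIF4v3m (log2 difference -2.72, standard error 0.12, limma adjusted p = 8.86e-07). It was even across WYG7 and close to undetected in PIF4v3m. LOC4326623, annotated as a hydroquinone glucosyltransferase, was at 18.0, 22.1 and 15.8 FPKM in WYG7 and at 3.45, 2.99 and 2.72 FPKM in PIF4v3m (log2 fold change -2.27, standard error 0.15). LOC4326218, closest to UGT73C6 of Arabidopsis thaliana, was at 4.89 ± 0.775 FPKM in WYG7 and 1.02 ± 0.260 FPKM in PIF4v3m (SD, n = 3).

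On the log2(FPKM + 1) scale the largest increase of all 71 genes was that of LOC4336004, annotated as a 7-deoxyloganetin glucosyltransferase after an iridoid enzyme of Gardenia jasminoides. It was at 0.809, 0.893 and 0.589 FPKM in WYG7 and at 5.62, 6.42 and 7.13 FPKM in PIF4v3m (log2 fold change 2.07, standard error 0.14, limma adjusted p = 4.80e-06). By the ratio of means it was 8.37-fold higher, and only LOC4335345, at 0.0623 ± 0.0187 against 0.654 ± 0.264 FPKM, had a larger ratio (10.5). LOC107281116 was at 2.07, 1.42 and 1.37 FPKM in WYG7 and at 6.68, 5.91 and 6.84 FPKM in PIF4v3m (log2 fold change 1.52, standard error 0.15). LOC107276307, named after an anthocyanin glucosyltransferase of Iris hollandica, was at 0.776, 0.905 and 1.03 FPKM in WYG7 and at 3.53, 2.68 and 3.74 FPKM in PIF4v3m. In each of these genes the lowest PIF4v3m library exceeded the highest WYG7 library.

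The 2 most abundant glycosyltransferases of PIF4v3m were among the higher genes, while in WYG7 the lower gene LOC4326623 (18.6 ± 3.21 FPKM) ranked between them. LOC112936005, closest to UGT83A1 of Arabidopsis thaliana, was at 26.3, 27.3 and 27.4 FPKM in WYG7 and at 55.9, 52.4 and 59.9 FPKM in PIF4v3m (log2 fold change 1.02, standard error 0.09, limma adjusted p = 1.23e-05). LOC4339227, named after a flavonoid 3-O-glucosyltransferase of strawberry, was at 18.0, 15.6 and 18.0 FPKM in WYG7 and at 38.5, 32.5 and 41.4 FPKM in PIF4v3m. The summed level of the 26 genes was therefore higher in PIF4v3m although 14 of them were lower, at 130 ± 5.41 FPKM in WYG7 and 171 ± 13.9 FPKM in PIF4v3m (SD, n = 3), a ratio of 1.32. The rice 2-hydroxyflavanone C-glucosyltransferase (LOC9266253), which makes the C-glycosyl flavones typical of rice leaves, was higher too, at 4.06 ± 0.878 against 8.82 ± 0.784 FPKM. It was the single glycosyltransferase of the 26 whose best match is a rice protein, and the other substrate names are those of relatives in other species.

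**Figure D4:**
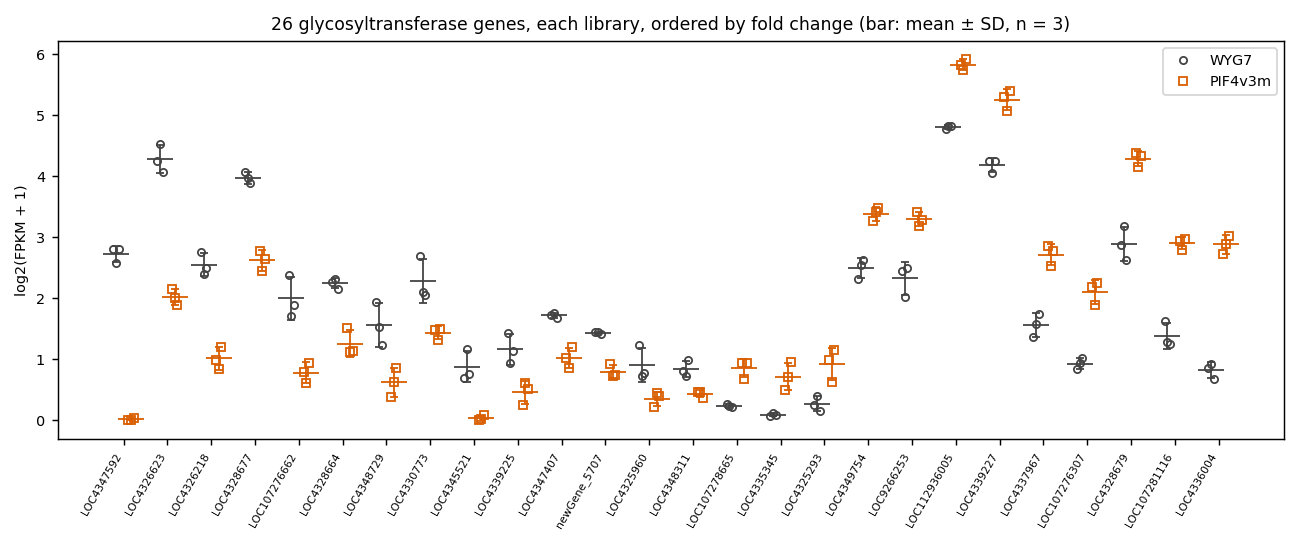
The 26 glycosyltransferase genes are ordered by fold change, with log2(FPKM + 1) on the y axis, a point for each library and a bar for the mean ± SD (n = 3). The lower genes lie on the left, from LOC4347592 (log2 fold change -2.72), and the higher genes on the right, up to LOC4336004 (2.07), with the 2 most abundant genes of PIF4v3m, LOC112936005 and LOC4339227, among the higher ones.

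Close neighbours among the glycosyltransferases went in opposite directions, whereas the neighbouring PAL and anthocyanidin reductase genes shared theirs. On chromosome 2, LOC4328677 was at 15.9, 14.6 and 13.8 FPKM in WYG7 and at 5.88, 4.44 and 5.22 FPKM in PIF4v3m (log2 fold change -1.35). LOC4328679, with 1 protein-coding gene between them, was at 6.29, 8.07 and 5.20 FPKM in WYG7 and at 19.8, 16.8 and 19.3 FPKM in PIF4v3m (log2 fold change 1.40). Their order of level was reversed between the lines. On chromosome 5, LOC4339225 was lower and LOC4339227, again with 1 gene between them, was higher.

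WYG7 replicate 1 stood above the other WYG7 libraries in many of the lower genes. It was the highest of the 3 WYG7 libraries in 35 of the 48 lower genes (72.9%), against 55.0% of all lower rows, and in 28 of the 34 genes more than 2-fold lower (82.4%), against 57.2% of such rows. In the 23 higher genes it was the highest in 7 (30.4%, against 39.1% of all higher rows). Its median excess over the mean of replicates 2 and 3 was 0.65 on the log2(FPKM + 1) scale for the entry enzymes and 0.04 for the glycosyltransferases, and 0.07 for all rows. Without this library all 48 lower and 23 higher genes were still called. So were 1618 lower and 1367 higher of the 2995 rows, since the table holds called genes only. Among the 71 genes, 29 were more than 2-fold lower and 16 more than 2-fold higher (all rows 923 and 812). Their median log2 fold change was -0.91, and that of all rows -0.52. The log2 fold changes of CAD2 (LOC4328552) and the PAL gene LOC4330034 were then -3.85 and -3.78.

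**Figure D5:**
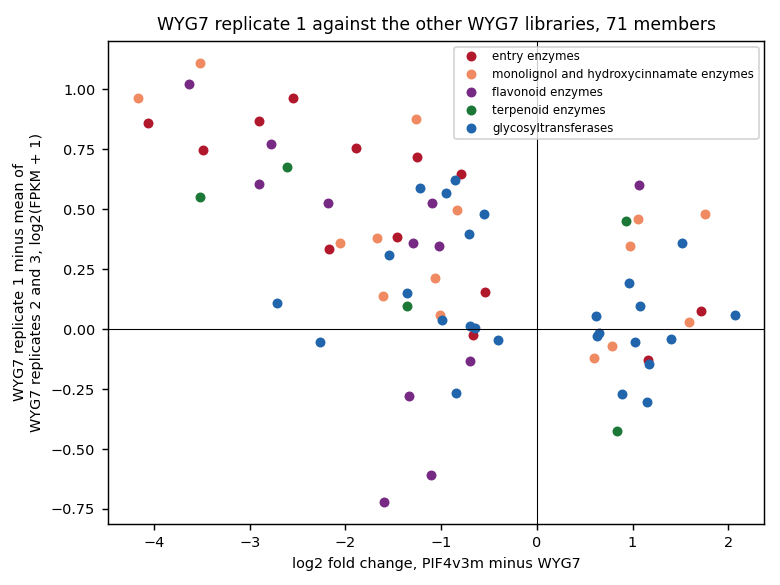
Each point is 1 of the 71 genes, with the log2 fold change of PIF4v3m minus WYG7 on the x axis and the excess of WYG7 replicate 1 over the mean of WYG7 replicates 2 and 3 on the y axis, both on log2(FPKM + 1). The y value also enters the x value, and the genes with the steepest decreases, such as LOC4328552 (x = -4.17, y = 0.97), lie high on the y axis.

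Markers of the response to pathogens or wounding were mostly lower too. Of 14 listed pathogenesis-related, chitinase and thaumatin-like genes, 12 were lower (85.7%, against 54.1% of all rows) and 2 higher in PIF4v3m. Their median log2 fold change was -1.27, and their summed level was 186 to 260 FPKM in WYG7 and 44.1 to 67.5 FPKM in PIF4v3m. Pathogenesis-related protein 1 (LOC4332568) had 10.1 ± 6.59 FPKM in WYG7 and 0.156 ± 0.0359 FPKM in PIF4v3m (SD, n = 3). WYG7 replicate 1 was the highest WYG7 library in 8 of the 14 (57.1%, against 47.7% of all rows and 55.0% of all lower rows). Its median excess over the mean of replicates 2 and 3 was 0.30 on the log2(FPKM + 1) scale for these markers. That excess was 0.31 for the 71 genes and 0.07 for all rows. The part of these markers in the results above was not tested.

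Genes that feed the phenylpropanoid pathway were mostly lower. Of 9 listed genes of the shikimate route and of aromatic amino acid supply, 7 were lower (77.8%, against 54.1% of all rows) and 2 higher. Their median log2 fold change was -0.90. On the log2(FPKM + 1) scale 3 were more than 2-fold lower (33.3%), near the 33.9% of all rows. Arogenate dehydratase 2 (LOC4332477), which makes phenylalanine, the substrate of PAL, had 30.3 ± 2.46 FPKM in WYG7 and 7.73 ± 0.957 FPKM in PIF4v3m. An aminodeoxychorismate synthase (LOC4341959), which draws chorismate towards folate, was higher, at 8.54 ± 0.381 against 31.3 ± 2.52 FPKM. The only listed gene of isoprenoid supply, hydroxymethylglutaryl-CoA synthase (LOC4347614) of the mevalonate route, was lower, at 3.34 ± 0.650 against 0.589 ± 0.185 FPKM. Whether this gene supplies the diterpene enzymes above, whose products are built in the plastid, was not tested.

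The P450 enzymes that add hydroxyl groups on the way to lignin were also lower. CYP98A1 (LOC4339188), of the family of the p-coumaroyl ester 3'-hydroxylases, had 28.1 ± 4.76 FPKM in WYG7 and 7.65 ± 0.610 FPKM in PIF4v3m. CYP84A1 (LOC4349097), of the family of the ferulate 5-hydroxylases that lead to syringyl lignin, had 3.12 ± 0.665 and 0.315 ± 0.0586 FPKM (SD, n = 3). Over the 36 listed genes annotated as cytochrome P450, 21 were lower (58.3%, against 54.1% of all rows) and 15 higher. Their median of -0.51 was near that of all rows. Downstream, all 5 listed laccase and dirigent genes were lower, against 54.1% of all rows, a small list from a table of called genes only. Laccase-6 (LOC107276446), of the oxidases that couple monolignols, was at 3.21 ± 1.35 FPKM in WYG7 and 0.00575 ± 0.00997 FPKM in PIF4v3m, and 4 dirigent genes, which guide the coupling of monolignols into lignans, had log2 fold changes between -1.43 and -0.98.

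The deposited table also assigns genes to KEGG pathways. Of 58 genes in KEGG phenylpropanoid biosynthesis, 32 belong to the 71, of which 23 were lower (71.9%, against 54.1% of all rows) and 9 higher. The other 26, mostly peroxidases and beta-glucosidases, had 9 lower (34.6%) and 17 higher genes. In KEGG flavonoid biosynthesis 17 of 19 genes were lower (89.5%), but 15 of the 19 belong to the 71 (13 lower). The other 4, all lower, include CYP98A1 described above. In KEGG diterpenoid biosynthesis 17 of 22 were lower (77.3%), of which 4 belong to the 71 (3 lower). The other 18 had 14 lower genes and include those of the chromosome 4 run described above. A peroxidase (LOC4328842), of the other enzyme family that can oxidise monolignols, had the largest increase of the phenylpropanoid list on the log2(FPKM + 1) scale, from 0.989 ± 0.302 to 28.1 ± 4.42 FPKM (SD, n = 3), and gibberellin 20 oxidase 2 (LOC4325003), a late enzyme of gibberellin synthesis, was lower, at 19.2 ± 1.66 against 2.36 ± 0.221 FPKM.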

How the data were processed

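RNA of rice leaves was sequenced from 3 WYG7 and 3 PIF4v3m libraries. The authors' methods name STAR, Cufflinks and DESeq2 for their own steps. The processing notes of the submitters list StringTie 1.3.0, HISAT2 2.0, Bowtie 0.12.2 and, as build, mm8 of the mouse, so which tools made the table is not settled. The authors deposited FPKM values for 2995 genes with their own log2 fold change and FDR, which were not used except to find that all 2995 rows passed an FDR under 0.01 and a fold of at least 2. Reads per library are listed by the study, but FPKM do not give the counts per gene, so no counting error is attached to a value.

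Values were tested as log2(FPKM + 1) by limma 3.58.1 under R 4.3.3 (two-sided, with a mean-variance trend, Benjamini-Hochberg over all 2995 rows, threshold 0.05), keeping rows with a mean above 0.01 FPKM, which left out 0 rows. The pseudocount of 1 FPKM understates the fold of low genes. An exact permutation test of 3 against 3 cannot go below p = 0.1. The fit was also run on simulated data in which 200 of 2995 rows were changed, all of them well above 0 FPKM in WYG7. It called 89% of the 2-fold and 99% of the 4-fold changes, and 11 unchanged rows. Unlike there, every row here had been called by the authors and some lie near 0 FPKM, so that run does not measure how reliable these calls are. Rows listed at 0 in a whole line (13 in PIF4v3m, 1 in WYG7, none of the 71) have no ratio and were not counted as over 10-fold.

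The 71 genes were rows whose Swiss-Prot text holds words of these enzymes, without rows whose text names cytochrome P450 or cytokinin. Of them 7 carry a cytochrome P450 domain in Pfam. The text names, in each class by first matching word, all genes of classes of up to 6, otherwise the 4 highest and 4 lowest fold changes at 1 FPKM or more without overlap, the 2 most abundant genes of each line, and direct neighbours, which gave 39 genes. Others of the 71 were added to complete a step, and other genes after their values were seen. Members and lists were chosen with earlier results of these data known. Of the 71 names, 27 rest on a rice protein and 44 on another species. Gene order and chromosome came from RefSeq (ASM3414082v1), which matched 68 of the 71, the other 3 being new genes. Promoter motifs were not analysed here. Alternatives were other pseudocounts, filters, scalings, weights, a replicate block, and leaving out each library.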

Additional observations from a re-analysis of the deposited data

How the results depend on the processing

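The calls of 48 lower and 23 higher genes held under each alternative that kept all 71 genes, except that quantile normalization lost 1 lower call (LOC4348311, log2 fold change -0.18, limma adjusted p = 0.107). A minimum mean of 1 FPKM in a line left 43 lower and 20 higher of 63 genes. Since the table holds called genes only, this was nearly fixed in advance, as it was for the 39 named genes, which kept direction and call in 584 of 584 alternative values. With a pseudocount of 0.1 or 0.01 FPKM and with each library scaled to the same sum, the genes more than 2-fold higher rose from 13 to 23 each time and those lower from 34 to 47, 48 and 43, while over all rows the higher ones rose from 797 to 1266, 1319 and 1369 and the lower ones from 1016 to 1594, 1617 and 1394. The median log2 fold change moved from -0.95 to -1.50, -1.67 and -1.38 in that order. A smaller pseudocount shrinks low values less by construction, equal sums raise the values against the pseudocount, and the median of all rows moved by -0.53, -0.57 and -0.39. Quantile normalization moved it by 0.23, and all rows then split into 960 more than 2-fold higher and 769 lower, against 797 and 1016, while the 71 genes had 16 higher and 30 lower (median -0.69). Leaving out each library gave 12 to 16 genes more than 2-fold higher, 29 to 36 lower, and medians from -1.04 to -0.88. Without the 7 genes that carry a cytochrome P450 domain, an alternative added after seeing the data, 43 were lower and 21 higher (median -0.90). With replicate number as a block the counts were 48 lower and 23 higher, and 1618 and 1372 over all rows. The correlation of deviations between libraries that share a number was -0.07, 0.003 and -0.10, so the numbers were not taken as pairs. The counts behind FPKM are not given, so values near 0 carry no counting error here.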

Other observations

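Genes annotated as MYB transcription factors, the family that holds known regulators of phenylpropanoid genes, were mostly higher in PIF4v3m. Of 18 listed genes 13 were higher (72.2%, against 45.8% of all rows) and 5 lower, with a median log2 fold change of 1.06. They were matched by name only, whatever their role. The steepest were in opposite directions. MYB20 (LOC4345623), named after a factor that in Arabidopsis thaliana promotes lignin genes, was at 10.6 ± 5.82 FPKM in WYG7 and 0.0778 ± 0.0246 FPKM in PIF4v3m (SD, n = 3), while the row annotated as Zm38 of maize (LOC4346246) was at 1.92 ± 0.356 and 23.8 ± 2.77 FPKM. Both rows annotated after a snapdragon Myb-related factor that lowers phenylpropanoid genes when overexpressed were higher, LOC9266213 at 2.00 ± 0.258 against 6.59 ± 0.926 FPKM and LOC4324770 at 4.49 ± 0.929 against 9.27 ± 2.02 FPKM. Whether any of these factors acts on the genes above was not tested.

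Of 16 rows whose annotation holds the word beta-glucosidase, 10 were higher (62.5%, against 45.8% of all rows) and 6 lower. That word also matches glucan endo-1,3-beta-glucosidases, which are other enzymes, so the share does not describe a single family. Beta-glucosidase 19 (LOC4338556), of a family that frees stored glucosides, had the largest increase on the log2(FPKM + 1) scale, at 14.4 ± 0.748 against 51.6 ± 3.88 FPKM, and the 4 steepest decreases were glucan endo-1,3-beta-glucosidases, led by the acidic isoform LOC4326518, which had 23.6 ± 5.33 FPKM in WYG7 and 0.344 to 5.36 FPKM in PIF4v3m, where replicate 3 was the highest. Of 18 transporter genes of the DETOXIFICATION, ABC G and ABC C families 9 were higher and 9 lower (50%, against 54.1% of all rows). Among them DETOXIFICATION 27 (LOC4345846) was at 21.3 ± 4.60 against 88.3 ± 8.23 FPKM and ABC transporter G 43 (LOC4343412) at 39.3 ± 9.41 against 9.33 ± 1.01 FPKM. The 26 genes of other conjugating enzymes had 12 higher and 14 lower (53.8%, against 54.1% of all rows), with a median of -0.57.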
